A study of Homo sapiens with 24 samples.

Results

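The comparison set TeloHAEC against Eahy926 while neither line received vascular endothelial growth factor (VEGF). It used 4 of the 24 libraries of the series, chosen by their labels alone: TeloHAEC whose medium lacked VEGF for 24 h (libraries 1.1 and 1.2) and the Eahy926 control of the same library day (libraries 1.1 and 1.2). TeloHAEC are human aortic endothelial cells immortalized with telomerase, normally kept in LifeLine VEGF endothelial medium. Eahy926 is a human endothelial hybrid line kept in DMEM with serum, a medium that holds no VEGF. Both lines were parental, and each is 1 established line. The titles call the TeloHAEC libraries "VEGF", and the treatment field gives the medium as lacking it. The rest of the media still differed (LifeLine against DMEM with serum), so line and base medium cannot be told apart. Other libraries, none of them in the comparison, gave further readings of the line difference: day 1 libraries with VEGF in both media (TeloHAEC in normal medium, and Eahy926 given VEGF for 24 h) and day 0 controls, where TeloHAEC had VEGF and Eahy926 did not. Day 1 libraries of both lines treated for 24 h with a cytokine at 10 ng/ml, either IL1b (interleukin 1 beta) or TNFa (tumor necrosis factor alpha), entered the fit. Input chromatin of day 0 was used to see whether a bin held an input peak.

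The measured mark was acetylation of histone H3 at lysine 27 (H3K27ac). Acetyl groups are placed there by coactivators recruited to active promoters and enhancers, and deacetylases remove them, so the mark maps the regulatory elements in use in a cell. Enhancers carry most of the difference between cell types, while many promoters are acetylated in nearly all cells. VEGF signals through receptor tyrosine kinases of endothelial cells and is a common ingredient of their media.

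The 4 lists differed in length. Over the 22 autosomes and with -log10 q at 2 or above, TeloHAEC without VEGF held 29965 peaks over 13.9 Mb in library 1.1 and 44506 peaks over 23.2 Mb in library 1.2. The Eahy926 control held 39617 peaks over 19.8 Mb and 37789 peaks over 22.6 Mb. Library 1.1 of TeloHAEC thus stood apart as the shortest list, and it was also the shallowest, at 5169029 tags against 5397840 to 7122108 in the other three. Its median peak was 408 bp long, against 433 to 512 bp in the others. Just inside the threshold, at a -log10 q of 2 to 2.5, the 4 lists held 1526 to 2995 peaks with a median fold enrichment of 3.41 to 3.66. Just outside it, from 1.5 to 2, they held 1502 to 2147 peaks with a median of 3.28 to 3.40. Day 0 ChIP lists covered 33.0 to 39.2 Mb, and input lists held 92 to 123 peaks.

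Similarity of the lists followed the line. The Jaccard index, the length shared by 2 lists over the length in either, was 0.415 between the TeloHAEC libraries and 0.571 between the Eahy926 libraries, and 0.277 to 0.346 between lines. Across media within a line it was 0.370 to 0.530 for TeloHAEC and 0.575 to 0.595 for Eahy926. Each of the 8 day 1 libraries without and with VEGF was closest to a library of its own line. The labelled line was thus not contradicted by the peak lists. The labelled medium was not checked this way, since similarity across media reached or passed that between replicates in both lines. Endothelial markers were not looked up, because the gene tables available use a different assembly. Positions below are on hg19 and carry no gene names for the same reason.

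Without VEGF, acetylated sequence differed between the lines in 11017 of 36576 autosomal bins of 10 kb (30.1% of tested bins). TeloHAEC was higher in 5488 bins (15.0%) and lower in 5529 (15.1%). Scaling each library to an equal total favours balance between directions, so the even split is not read as a result. The even split and the number of calls depended on the peak lists: a -log10 q of 5 or more gave 2416 higher and 3626 lower bins and kept 39.8% of the calls, and an equal covered length per library gave 3609 and 2807 and kept 44.7%. The value of a bin was the length under peaks in it, scaled to an equal total per library and called covered bp below, tested as log2(covered bp + 200) with limma at an adjusted p under 0.05. In 11012 of the called bins (30.1% of those tested) both libraries of 1 line lay above both of the other. Over all tested bins, covered or not, TeloHAEC lay above Eahy926 in this way in 8812 (24.1%) and below in 10177 (27.8%). An exact permutation test of 2 against 2 libraries cannot reach 0.05, so limma's test rests on a spread pooled over the 10 groups of the fit. Pairs of libraries that are both empty contribute nothing to that spread, so the smallest p-values can be too small. The labels call the libraries biological replicates, and do not say whether they were separate cultures.

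Most of these differences were of presence. Of the 5488 bins higher in TeloHAEC, 4245 (77.4%) had no peak in either Eahy926 library, 585 had one in 1 library, and 658 (12.0%) were covered in both. Of the 5529 lower bins, 3645 (65.9%) had no peak in either TeloHAEC library, 1067 had one in 1 library, and 817 (14.8%) were covered in both. Median covered length in the higher line was 930 bp in TeloHAEC and 947 bp in Eahy926. Scaling to an equal total per library brings such values together, so their likeness is not read as a result. The median log2 difference was 2.19 in higher and -2.03 in lower bins, and 1.09 and -0.98 where both lines were covered. Of the higher bins 2639 were at 0 in all 10 Eahy926 ChIP libraries, and 1779 of the lower bins in all 10 TeloHAEC libraries. Those 10 include the compared libraries, and such bins passed the filter only through the line in which they were high. The share of all tested bins at 0 throughout a line was not counted, so these counts are a description only.

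Bins covered in all 4 libraries numbered 14268, a choice that leaves out every difference of presence and so gives smaller differences by construction. In them the median absolute log2 difference between lines was 0.33, and 13112 of them (91.9%) lay within 2-fold on the log2(covered bp + 200) scale. Of these bins 1475 (10.3%) were called. Over all tested bins the median absolute log2 difference was 0.39 between the TeloHAEC libraries and 0.16 between the Eahy926 libraries, and 0.74 to 0.77 for the 4 pairs of libraries from different lines. The 90th percentile was 1.87 and 1.36 within lines and 2.51 to 2.67 between them. Differences between lines were thus larger than those between replicates, and the TeloHAEC replicates were less alike than the Eahy926 replicates.

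The bins with the strongest excess in TeloHAEC held several peaks there and empty in Eahy926. The bin on chromosome 10 from 6010001 to 6020000 held 3607 and 2430 covered bp in the TeloHAEC libraries, in 4 peaks each, and was listed at 0 in both Eahy926 libraries. Its log2 difference was 3.98 (SE 0.18, adjusted p = 2.9e-08). The bin on chromosome 12 from 90340001 to 90350000 held 2806 and 2760 bp in TeloHAEC against 0 and 0 (log2 difference 3.90, SE 0.15, adjusted p = 2.8e-08). In scaled covered bp, replicates differed more in the first bin than in the second. Scaling to an equal total raised the shorter TeloHAEC list more, so this order is not read as a result. That both compared TeloHAEC libraries were above both Eahy926 libraries in each bin was a condition of the choice of named bins. Both bins were covered in all 8 other TeloHAEC ChIP libraries, at 1255 to 2461 bp and 1889 to 2541 bp, and were at 0 in all 8 other Eahy926 libraries.

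The remaining bins named for TeloHAEC behaved alike with 2 exceptions. On chromosome 17, the bin from 48590001 held 3566 and 2276 bp, and on chromosome 13 the bin from 37700001 held 2682 and 2775 bp, each against 0 and 0 in Eahy926. The others began at 31170001 on chromosome 12, 241850001 on chromosome 2, 53170001 on chromosome 20, 81720001 on chromosome 16, 38420001 on chromosome 15 and 147010001 on chromosome 3, with log2 differences of 3.85 to 3.94. All 10 were covered in all 8 other TeloHAEC libraries. The chromosome 3 bin was the first exception: without VEGF it held 3274 and 2494 bp against 0 and 0, yet day 0 Eahy926 controls held 1162 and 799 bp there. Its day 0 log2 difference was 0.64 (adjusted p = 0.038). The chromosome 16 bin held 221 bp in 1 day 0 Eahy926 library and 0 in the other 7 outside the comparison.

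Bins with the strongest excess in Eahy926 mirrored this. On chromosome 20, Eahy926 held 3302 and 3228 bp between 13010001 and 13020000, in 4 peaks each, and both TeloHAEC libraries were empty. The log2 difference was -4.11 (SE 0.15, adjusted p = 2.8e-08), and the 8 other Eahy926 libraries held 1858 to 3677 bp. Next came the bin from 33150001 on chromosome 22, which held 3071 and 2891 bp in Eahy926 against 0 and 0 (log2 difference -3.99, SE 0.16, adjusted p = 2.8e-08). Replicates were close in both bins, and that the lines did not overlap was a condition of the choice. Neither bin had a peak in any of the 8 other TeloHAEC libraries.

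The other 8 bins named for Eahy926 had log2 differences of -3.93 to -3.82 and 0 bp in both TeloHAEC libraries. They began at 52020001 on chromosome 14, 6150001 and 16260001 on chromosome 8, 69890001 on chromosome 17, 23080001 on chromosome 21, 21580001 and 21520001 on chromosome 12 and 27930001 on chromosome 11. All 10 were covered in the 8 other Eahy926 libraries. Absence from TeloHAEC held in every other library for 7 of them. The chromosome 14 bin was covered in both day 0 TeloHAEC controls, at 510 and 373 bp, the bin from 16260001 on chromosome 8 in 4 other TeloHAEC libraries, up to 887 bp, and the chromosome 11 bin in 1, at 260 bp. None of the 20 named bins held an input peak.

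**Figure D1:**
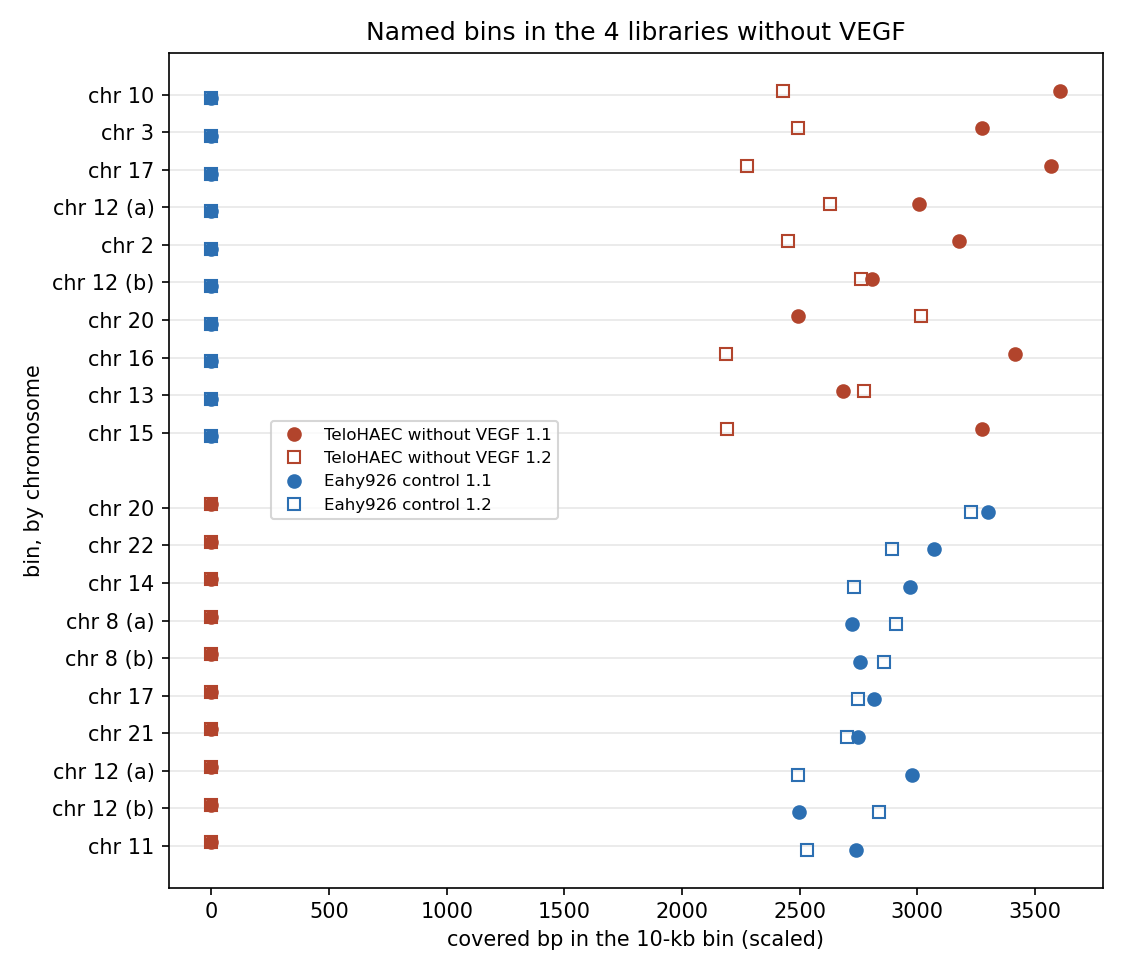
Covered bp (scaled length under peaks, x axis) in each of the 20 named 10-kb bins (y axis, labelled by chromosome) for the 4 libraries without VEGF; each point is 1 library. The upper 10 bins are at 2185 bp or more in both TeloHAEC libraries and at 0 in Eahy926, and the lower 10 show the reverse.

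Adjacent called bins formed a few longer blocks. The 5488 higher bins fell into 4921 runs, of which 4434 were a lone bin and 70 had 3 or more bins, and the 5529 lower bins into 4991 runs, 4524 of a lone bin and 64 of 3 or more. The longest higher run spanned 50 kb on chromosome 10 from 97020001 to 97070000, with 5852 and 4565 bp in TeloHAEC and 0 in both Eahy926 libraries. Eahy926 was not empty there throughout, with 1527 and 1816 bp in its day 0 controls and 533 bp in 1 of 2 libraries with VEGF. The next 2 higher runs, 40 kb on chromosome 13 from 43090001 (5729 and 4261 bp) and on chromosome 9 from 90100001 (5169 and 3961 bp), were at 0 in Eahy926 without VEGF, with VEGF and on day 0.

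The longest lower run, 50 kb on chromosome 1 from 238810001 to 238860000, held 5890 and 5702 bp in Eahy926. It was at 0 in both TeloHAEC libraries without VEGF and in both TeloHAEC controls of each day. A 40-kb run on chromosome 2 from 75810001 held 4839 and 4796 bp in Eahy926 with the same absence from TeloHAEC. A further one on chromosome 19 from 55650001 held 4569 and 4543 bp, and there TeloHAEC 1.2 held 295 bp and its day 0 controls 254 and 267 bp.

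The line difference was measured again with VEGF in both media, in 4 libraries that share none with the comparison. There 10898 bins were called (29.8%), 5147 higher (14.1%) and 5751 lower (15.7%) in TeloHAEC. Of the 5488 bins higher without VEGF, 5210 (94.9%) had the same sign and 3499 (63.8%) were also called in that direction with VEGF, and 9 were called the other way. Of the 5529 lower bins, 5265 (95.2%) had the same sign, 3696 (66.8%) were called again and 4 were called the other way. The 7195 bins called alike in both media made up 65.3% of the calls without VEGF and 66.0% of those with it. Across the 36576 bins the log2 differences had a Pearson correlation of 0.82 and a Spearman correlation of 0.78. This describes bins, which are not replicates. All line comparisons here also share the 2 cell lines and 1 fit, so that a bin has the same pooled spread, and the same standard error, in each.

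The day 0 controls were used to ask which line differences persisted without VEGF, since they too share no library with the comparison. On day 0, 10167 bins were called (27.8%), 5788 higher (15.8%) and 4379 lower (12.0%) in TeloHAEC. Without VEGF 5727 of them (56.3%) were called again in the same direction, which is 52.0% of the calls without VEGF, and 50 were called in the opposite direction. Of the day 0 differences higher in TeloHAEC 3085 (53.3%) persisted, and of those lower 2642 (60.3%). Direction held more widely than the call, with the same sign in 4604 (79.5%) and 3695 (84.4%). With VEGF in both media 2991 (51.7%) and 2757 (63.0%) of the day 0 differences were called again, close to the shares without it.

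In all, 4705 bins were called in the same direction on day 0, without VEGF and with VEGF, 2398 higher and 2307 lower in TeloHAEC. They were 42.7% of the calls without VEGF. A further 1302 higher and 1498 lower bins were called without VEGF and in neither other comparison. That share says nothing of VEGF by itself, as a call missed in 1 comparison is not a tested difference.

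**Figure D2:**
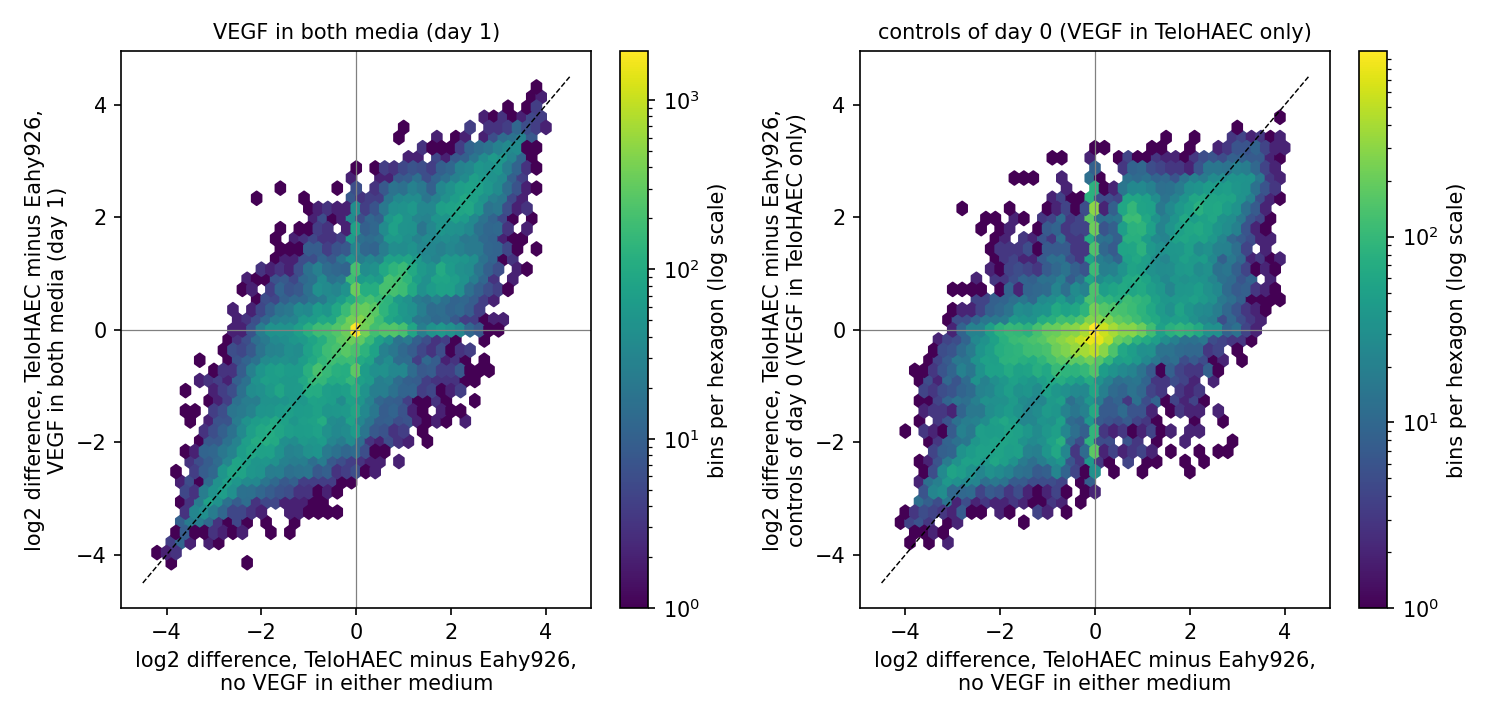
Log2 difference of TeloHAEC minus Eahy926 in 36576 bins of 10 kb without VEGF (x axis) against the same with VEGF in both media (left, y axis) and in day 0 controls (right, y axis); colour gives the number of bins per hexagon on a log scale and the dashed line marks equal values. The Pearson correlation is 0.82 on the left and 0.68 on the right. A column at 0 on the right includes bins with a day 0 difference and no covered bp without VEGF.

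Day 0 differences that did not persist had a shorter median length, and part of them had no peak left to compare. Of the 2703 higher bins not called again, 1053 were at 0 in all 4 libraries without VEGF, as were 502 of the 1737 lower ones. Median day 0 covered length in TeloHAEC was 657 bp in higher bins that did not persist and 768 bp in those that did. In Eahy926 the same medians for lower bins were 703 and 804 bp. Day 0 lists were longer, from 18387194 to 21135399 tags, so a missing peak on day 1 may not have been detectable at its depth.

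Among the largest day 0 differences not called without VEGF, library 1.1 of TeloHAEC was often the one at 0. On chromosome 3 the bin from 98450001 held 1703 and 2034 bp in day 0 TeloHAEC and 1731 and 1761 bp in TeloHAEC with VEGF on day 1, but 0 and 1253 bp without VEGF. Eahy926 was at 0 there in all 10 libraries. The difference without VEGF was 1.43 on the log2 scale (SE 0.61, adjusted p = 0.10), and its change with VEGF was -1.85 (adjusted p = 0.61). The bins from 28740001 on chromosome 21 (0 and 1156 bp) and from 41130001 on chromosome 13 (0 and 859 bp) had the same order of libraries and no peak in Eahy926. On chromosome 11 the bin from 27230001 held 0 and 424 bp in TeloHAEC and 0 and 313 bp in Eahy926 (log2 difference 0.14, adjusted p = 0.97), and the bin from 72000001 on chromosome 15 was at 0 in both. All 5 held 1503 to 2034 bp in day 0 TeloHAEC. With VEGF on day 1, TeloHAEC held 934 and 1421 bp in the chromosome 21 bin. There it held 0 and 362 bp on chromosome 13, 0 and 927 bp on chromosome 11 and 635 and 0 bp on chromosome 15.

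In the other direction 2 bins were at 0 in day 0 TeloHAEC but held TeloHAEC peaks on day 1, in both libraries without VEGF and in 1 with it. On chromosome 9 the bin from 113500001 held 606 and 651 bp in TeloHAEC without VEGF, against 1587 and 1927 bp in Eahy926. The line difference of -1.24 did not pass the test (SE 0.63, adjusted p = 0.17), although the libraries did not overlap. On chromosome 20 the bin from 9160001 held 476 and 315 bp against 1879 and 1982 bp (adjusted p = 0.084). With VEGF on day 1, TeloHAEC held 0 and 361 bp in the chromosome 9 bin and 0 and 527 bp in the chromosome 20 bin. Of the 8 other TeloHAEC libraries 4 and 5 were covered in these bins, at up to 771 and 829 bp. The remaining 3, from 95870001 on chromosome 15, 23170001 on chromosome 6 and 167240001 on chromosome 4, were at 0 in TeloHAEC and in 1 of the 2 Eahy926 libraries. Eahy926 with VEGF held 0 and 271, 0 and 638 and 0 and 521 bp in these 3 bins.

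A change of the line difference with VEGF was called in few bins, and a bin not called is not shown to be equal in both media. The difference without VEGF minus that with VEGF passed the test in 310 bins (0.848%), of which 171 (0.468%) moved toward TeloHAEC without VEGF and 139 (0.380%) toward Eahy926. At an unadjusted p under 0.05 there were 2989 bins. Of the 310 bins, 158 were called between lines without VEGF and 193 with it, 30 were called alike in both media and 11 in opposite directions. Among those toward TeloHAEC the median line difference was 1.56 without VEGF and -1.36 with it, and among the others 0 and 1.74. This contrast shares its libraries with both line comparisons, so its values are not independent of theirs.

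Bins with the largest changes held 1 or 2 short peaks in each covered library without VEGF. On chromosome 16 the bin from 19530001 to 19540000 held 754 and 753 bp in TeloHAEC without VEGF and 0 and 0 with it, while Eahy926 was at 0 and 0 without VEGF and at 412 and 391 bp with it. The change was 3.84 (SE 0.41, adjusted p = 0.0021). Day 0 controls of both lines were covered, at 714 and 649 bp in TeloHAEC and 797 and 712 bp in Eahy926. By listed peaks the lines thus exchanged places between media in this bin, and neither pattern matched the day 0 controls. The change lost its call in 4 settings. These were a -log10 q of 5 or more, the lists as deposited, equal numbers of top peaks and a pseudocount of 1000 bp.

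Another bin of chromosome 16, from 81740001, showed the opposite order, with 0 and 0 bp in TeloHAEC without VEGF and 1238 and 840 bp with it. Eahy926 held 322 and 524 bp without VEGF and 0 and 0 with it (change -4.23, SE 0.48, adjusted p = 0.0024). The bin from 43420001 on chromosome 1 was at 0 in TeloHAEC without VEGF and held 597 and 1069 bp with it, and Eahy926 went from 486 and 765 bp to 0 and 0 (change -4.35, SE 0.66, adjusted p = 0.0081). In both bins TeloHAEC was covered in all 8 of its other ChIP libraries, and Eahy926 in 3 of its 8. The bins were picked for the largest changes. Both changes lost their call at a -log10 q of 5 or more and with an equal covered length.

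On chromosome 15 the bin from 91220001 was at 0 in TeloHAEC without VEGF and covered in its 8 other libraries, at 355 to 1076 bp, and all Eahy926 libraries were covered. Its change of -2.84 (adjusted p = 0.0088) turned to 1.15 at a -log10 q of 5 or more and to 0.18 with an equal covered length in every library. None of the 10 bins named for the change was called under every setting tried. The 20 named line differences were, but they were picked as the largest of many calls and tried under fewer settings. The sets are thus not compared. Which bins were called for the change, and how many, also depended on single libraries, of Eahy926 as well as of TeloHAEC. At a -log10 q of 5 or more 9 of the 310 calls were kept, with 213 of them still tested.

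**Figure D3:**
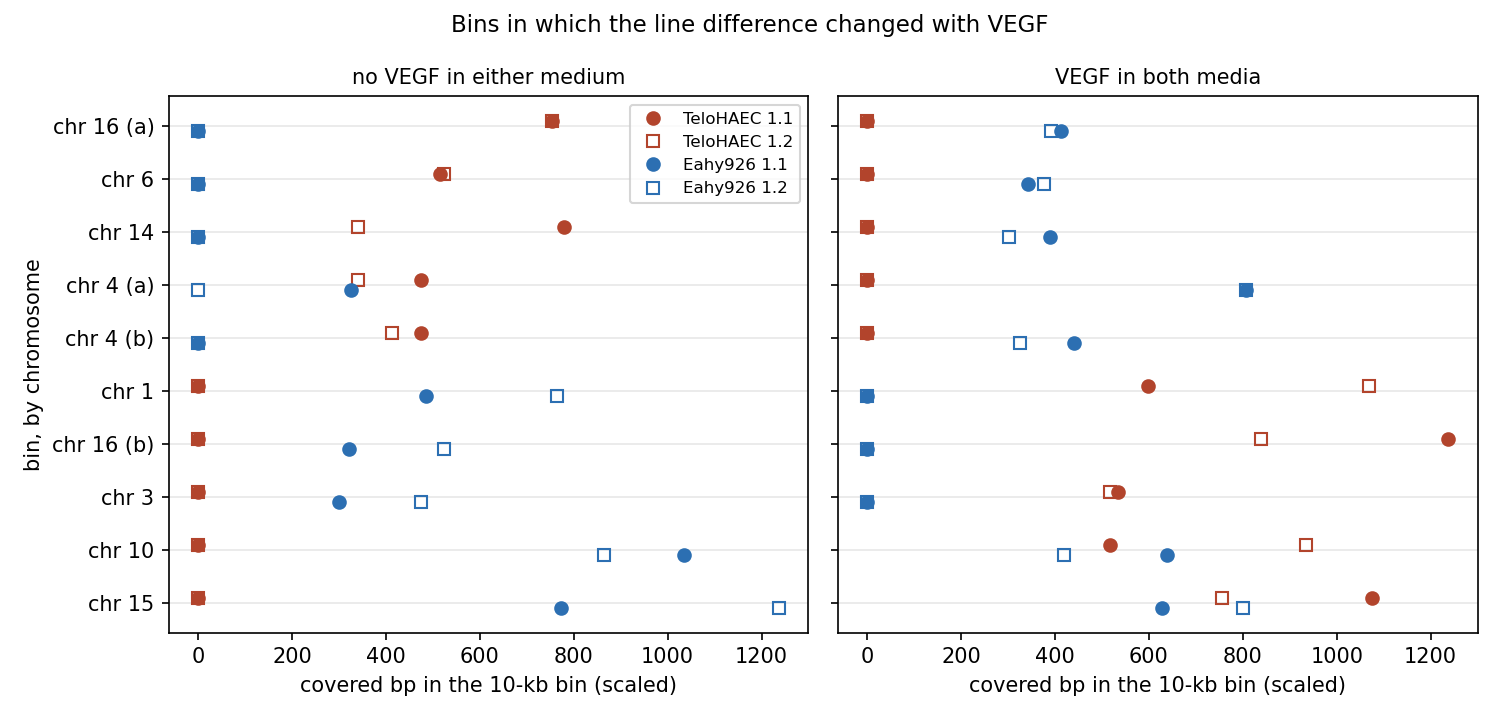
Covered bp (x axis) in the 10 bins named for a changed line difference (y axis, by chromosome), with no VEGF in either medium (left) and with VEGF in both (right); each point is 1 library. In the upper 5 bins TeloHAEC is covered on the left and at 0 on the right, and in the lower 5 it is at 0 on the left and covered on the right.

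Regions were also counted by the presence of a peak, without any scaling. Peaks of the 4 libraries merged into 62907 regions. A peak of all 4 libraries lay in 14935 regions (23.7%), with a median width of 865 bp and a total of 14.4 Mb. A peak of both TeloHAEC libraries and of neither Eahy926 library lay in 6609 regions (10.5%, median 572 bp, 4.13 Mb), called TeloHAEC-listed here, and the reverse in 7854 Eahy926-listed regions (12.5%, median 558 bp, 4.92 Mb). Another 12821 regions held a peak of 1 TeloHAEC library alone and 9189 of 1 Eahy926 library alone. The counts rest on replicate agreement: without TeloHAEC 1.1 the TeloHAEC-listed regions numbered 17140, and the Eahy926-listed ones 13527 without TeloHAEC 1.2, 12880 without Eahy926 1.1 and 13399 without Eahy926 1.2. Of the shared regions 37.0% were wider than 1000 bp, against 7.58% of the TeloHAEC-listed and 8.91% of the Eahy926-listed. Merging peaks of more libraries widens a region by construction, so these widths are not compared.

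Regions listed in 1 line cannot overlap the shared ones, since overlapping peaks were merged. Their distances to shared regions are given without a comparison set, so they do not tell near from far. The median distance to the nearest shared region was 43.4 kb for TeloHAEC-listed and 38.7 kb for Eahy926-listed regions. Within 10 kb of a shared region lay 19.2% and 25.7%, and beyond 100 kb 30.7% and 30.6%. Median fold enrichments were 4.34 and 4.67 in the TeloHAEC libraries for TeloHAEC-listed regions and 4.51 and 4.42 in the Eahy926 libraries for Eahy926-listed ones. These fold enrichments are the authors' values for the peaks.

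The regions were then looked up in the other libraries. TeloHAEC-listed regions had a peak in both day 0 TeloHAEC controls in 82.5% of cases and in both TeloHAEC controls of day 1, which include the ChIP list of least covered length, in 56.2%. In Eahy926 a peak in both libraries was found for 3.57% of them (236 regions) with VEGF, 1.32% after IL1b, 6.40% after TNFa and 21.1% on day 0. Eahy926-listed regions had a peak in both libraries for 75.1% with VEGF, 48.5% after IL1b, 71.1% after TNFa and 85.4% on day 0. In TeloHAEC the share was 4.11% (323 regions) in day 1 controls, 15.2% after IL1b, 14.6% after TNFa and 34.1% on day 0. The day 0 libraries, which are deeper and have longer lists, thus held a peak in regions of the other line more often than the day 1 libraries did. Over all 20 ChIP libraries, 1712 TeloHAEC-listed regions (25.9%) and 1203 Eahy926-listed regions (15.3%) had a peak in every library of their line and in none of the other.

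**Figure D4:**
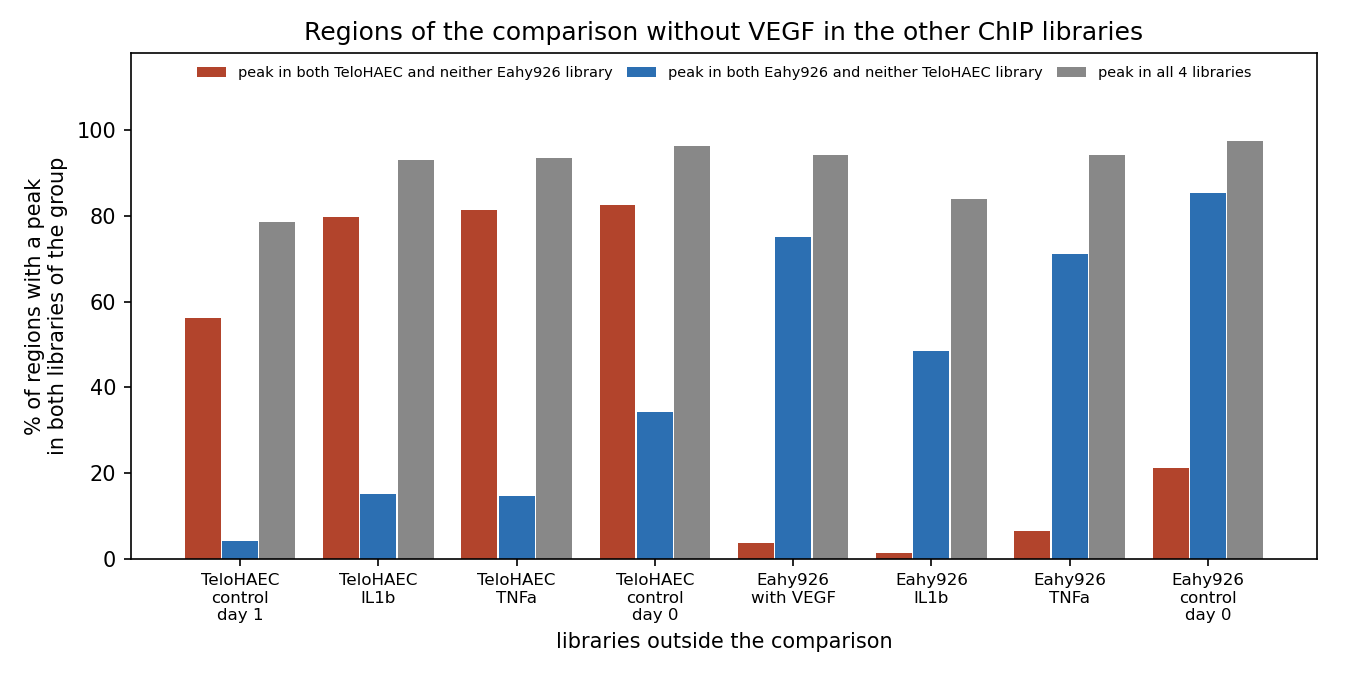
Percent of regions (y axis, bars from 0) with a peak in both libraries of each group outside the comparison (x axis), for regions listed in TeloHAEC, in Eahy926 or in all 4 libraries without VEGF. TeloHAEC-listed regions reach 82.5% in day 0 TeloHAEC and 3.57% in Eahy926 with VEGF, and Eahy926-listed regions reach 34.1% in day 0 TeloHAEC.

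The widest regions listed in 1 line recurred in that line throughout. The widest TeloHAEC-listed region, on chromosome 2 from 122936294 to 122938532 (2239 bp), was covered over 587 bp in library 1.1 and 2066 bp in library 1.2. The next, on chromosome 3 from 66522316 to 66524464 (2149 bp), had fold enrichments of 6.53 and 7.16. The others lay on chromosome 8 (54570713 to 54572796), chromosome 12 (122581603 to 122583608) and chromosome 2 (46524921 to 46526809). All 5 had a peak in the 8 other TeloHAEC libraries. The first 3 had none in the 8 other Eahy926 libraries, the chromosome 12 region had one in 1 library, and the last had one in 5.

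The widest Eahy926-listed region lay on chromosome 12 from 21519800 to 21522624 (2825 bp), was covered over 2225 and 2760 bp, and lies mostly in the bin from 21520001 named above. The next 4 lay on chromosome 9 (127456902 to 127459389), chromosome 4 (162475060 to 162477298), chromosome 18 (64932324 to 64934546) and chromosome 21 (17942291 to 17944391). All 5 had a peak in the 8 other Eahy926 libraries and in none of the 8 other TeloHAEC libraries.

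Whole chromosomes also carried unequal shares of acetylated sequence. Shares of covered length differed for 14 of 22 autosomes (63.6%, by limma over the 20 ChIP libraries, adjusted over 22), 7 higher and 7 lower in TeloHAEC. Shares of a library sum to a fixed total, so higher shares of some chromosomes go with lower shares of others. Chromosome 13 differed most: it held 2.55% and 2.74% of the covered length in the TeloHAEC libraries and 1.64% and 1.71% in Eahy926, a ratio of 1.58 (log2 difference 0.66, SE 0.08, adjusted p = 1.4e-05). Of its 973 tested bins 37.4% were called, against 30.1% of all tested bins, with 257 higher and 107 lower in TeloHAEC. Chromosome 12 lay the other way, with 5.38% and 5.55% in TeloHAEC and 6.64% and 6.73% in Eahy926 (ratio 0.817, adjusted p = 7.0e-08). Of its 2071 tested bins 31.3% were called, near the share over all bins, with 225 higher and 424 lower.

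Shares of chromosomes 22, 10, 6, 8, 9 and 1 were higher in TeloHAEC, with ratios of 1.16, 1.15, 1.13, 1.12, 1.06 and 1.02. Shares of chromosomes 5, 16, 11, 18, 14 and 21 were lower, with ratios of 0.878, 0.891, 0.926, 0.931, 0.934 and 0.945. With VEGF in both media all 14 shares differed in the same direction and 13 were called again (15 of 22 called there, 68.2%), and on day 0, 12 had the same direction and 11 were called (13 of 22, 59.1%). The shares of chromosomes 1, 16, 18, 21 and 22 lost their call when some library was left out. The amount of DNA per chromosome in each line was not measured here, and the input lists were too short to give shares.

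**Figure D5:**
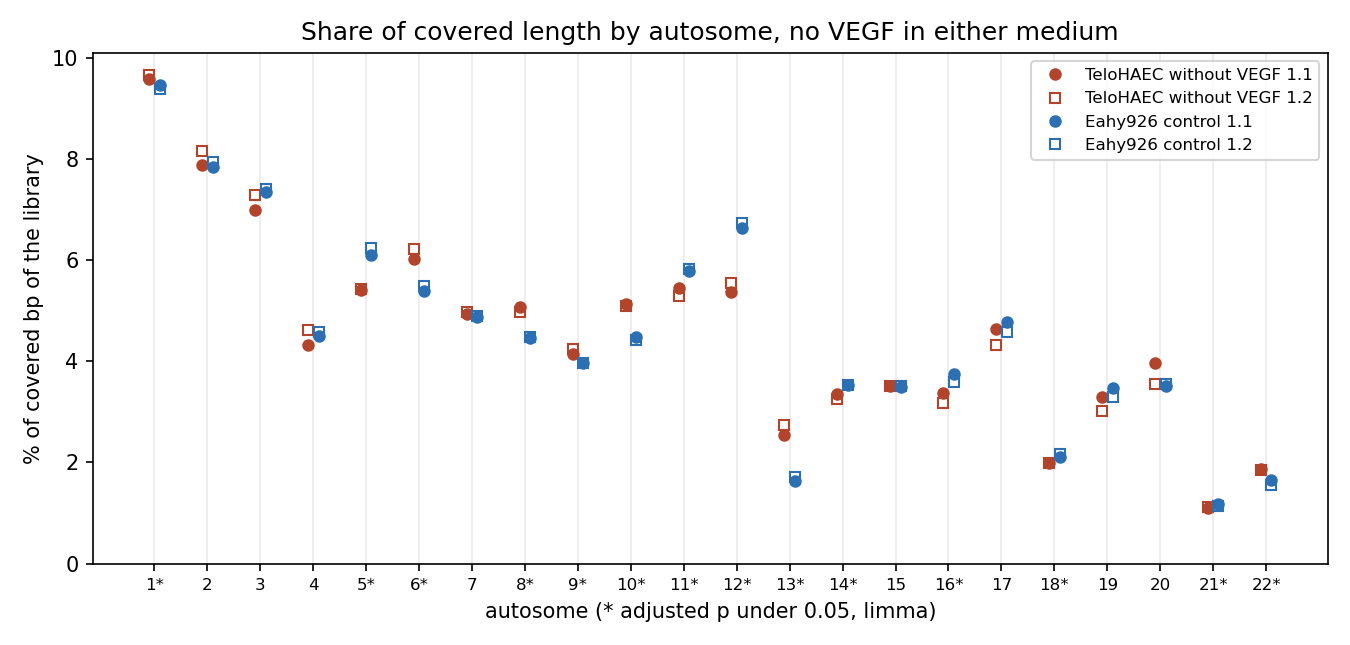
Percent of the covered length of a library that lies on each autosome (y axis) by chromosome (x axis; an asterisk marks an adjusted p under 0.05 in limma) for the 4 libraries without VEGF, each point 1 library. On chromosome 13 both TeloHAEC libraries lie above both Eahy926 libraries (2.55% and 2.74% against 1.64% and 1.71%), and on chromosome 12 below them.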

How the data were processed

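Reads had been aligned to hg19 with Bowtie2, per the submitters' processing notes. Per the file headers, the authors ran MACS 2.1.1.20160309 on each library alone, with no input as control, at a p threshold of 0.001, keeping 1 tag per position. The deposited pileup is a signal of stacked fragments not scaled for depth, the authors' fold enrichment, as deposited, is a ratio of pileup over local background, and the deposited -log10 p and -log10 q values are columns of the lists. The headers state that q would not be calculated, yet the q column holds values, and these were used as deposited. How they were made is not given in the sources used here. Comparisons rest on the position and length of peaks, since no read counts per region were used.

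Peaks at a -log10 q of 2 or more on autosomes were summed as bp per 10-kb bin and scaled to an equal total covered length. Bins with 500 bp in 2 or more of the 20 ChIP libraries were tested on the log2(covered bp + 200) scale (limma 3.58.1, R 4.3.3): 1 fit of 10 group means with 10 residual degrees of freedom, Benjamini-Hochberg adjusted over all bins. The code was tested on simulated data. The bins named were, per direction, the 10 largest differences among called bins with groups that do not overlap, 5 per direction for the change with VEGF and for day 0 differences not called without VEGF, the 3 longest runs and the 5 widest regions per direction. Comparisons, lists and names were chosen with earlier results of these data known. Gene windows, gene lists and cell type markers were planned but not used here, since the annotation at hand was on another build. Alternatives changed the peak threshold, list length, scaling, pseudocount (50 or 1000 bp), filter, bin size (50 kb), overlap rule, samples in the fit and block, or added X. Equal lists held the 29984 top peaks or 14.2 Mb per library.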

Additional observations from a re-analysis of the deposited data

Results flagged for a closer look

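The line difference was tested for a change with VEGF, and 310 of 36576 bins passed. The 10 bins with the largest changes were flagged because the difference between the lines differed between media by that test. Toward TeloHAEC without VEGF, the changes in log2(covered bp + 200) were 3.84 and 3.22 in the bins from 19530001 on chromosome 16 and 54910001 on chromosome 4, 3.33 from 129970001 on chromosome 6, 3.30 from 21270001 on chromosome 14 and 3.23 from 178230001 on chromosome 4. In 4 of these 5 bins Eahy926 was at 0 in both libraries without VEGF, and from 178230001 on chromosome 4 it held 326 and 0 bp there and 807 bp in each library with VEGF.

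Toward Eahy926 without VEGF, the changes were -4.35 from 43420001 on chromosome 1, -4.23 from 81740001 on chromosome 16, -3.40 from 72490001 on chromosome 3, -2.84 from 52340001 on chromosome 10 and -2.84 from 91220001 on chromosome 15. TeloHAEC was at 0 in both libraries without VEGF in all 5 and covered in its 8 other ChIP libraries. Eahy926 was covered in both libraries with VEGF in the last 2 bins and at 0 in the first 3. No group had the 4 libraries needed to look for a single outlying library.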

How the results depend on the processing

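At a -log10 q of 5 or more, 6042 bins differed between lines without VEGF (2416 higher, 3626 lower), 6281 with VEGF and 5726 on day 0, and 2407 day 0 differences persisted. TeloHAEC-listed regions fell to 2642 and the log2 ratio of peak number from -0.08 to -0.45, while TeloHAEC 1.1 kept 6.84 Mb and 1.2 kept 15.6 Mb. With equal covered length the numbers were 6416, 6491, 6401 and 2600, Eahy926-listed regions numbered 3903, and the log2 difference of the share of chromosome 21 turned to 0.0085. Of the 10167 day 0 calls the strict threshold kept 4876 and equal length kept 2204. At equal length 5655 of them were still tested and 7 were called in the opposite direction. The change with VEGF passed in 165 bins with equal length, 72 with quantile scaling, 151 without scaling, 5 with a pseudocount of 1000 bp, 496 without the filter and 95 in 50-kb bins. These were often other bins than the 310. Equal length kept 5 of the 310 calls, with 148 still tested, and equal numbers of top peaks kept 33. Quantile scaling kept 69 and unscaled values 134. Its difference on chromosome 15 from 91220001 reversed to 1.15 and 0.18 under the strict threshold and equal length. On day 0, 50-kb bins gave 6425 calls and a fit of the compared groups alone 15768. That fit gave 8011 calls without VEGF. Unscaled values shifted the median of all bins with VEGF by -0.13.

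With each library left out in turn, calls ranged from 8572 to 11608 without VEGF, from 8449 to 12673 with VEGF, from 7018 to 7297 on day 0 and from 262 to 2567 for the change. Persisting bins ranged from 4491 to 6112, TeloHAEC-listed regions from 7791 to 17140, Eahy926-listed regions from 8802 to 13527 and called chromosomes from 11 to 12. Without TeloHAEC 1.1, 57.7% of the calls were higher in TeloHAEC, against 49.8% with it. A lone library was assumed to vary like the other groups. Of the 11017 calls, the strict threshold kept 4383, equal length 4928 and single omissions 7901 to 9234. The 20 named line differences were called under all 16 alternatives. They were picked as the largest differences and do not stand for the 11017 calls.

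With a replicate block 10925 bins were called without VEGF, 294 for the change and 13 chromosomes, losing chromosome 1 (adjusted p = 0.063). Deviations of same-numbered libraries correlated at 0.01 across bins between the lines without VEGF, at 0.03 with VEGF, at 0.05 between Eahy926 without and with VEGF, and at 0.15 between TeloHAEC without and with VEGF, where both 1.1 libraries are short lists. The labels do not say that numbers mark shared cultures. Depth limits absences: a bin at 0 may hold unlisted acetylation.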

Other observations

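In 517 windows of 5 Mb with at least 20 tested bins, the median log2 difference without VEGF was at or below -1 in 10 windows and at or above 1 in 2. These windows were chosen after their values were seen and are a description. The lowest, from 75 to 80 Mb on chromosome 2, held 2607 and 4753 bp in the TeloHAEC libraries and 20038 and 20447 bp in Eahy926, with 13 of 24 bins lower and none higher. Its median was -1.85, against -2.07 with VEGF and -1.85 on day 0. From 65 to 70 Mb on chromosome 6, TeloHAEC held 0 and 1764 bp against 15071 and 13102 bp.

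The highest, from 110 to 115 Mb on chromosome 8, held 14271 and 16905 bp in TeloHAEC against 3746 and 2692 bp, with 10 of 21 bins higher and none lower. Its median was 1.50, against 0.91 with VEGF and 1.70 on day 0. From 65 to 70 Mb on chromosome 13 the median was -1.28, opposite to that chromosome's larger share in TeloHAEC, and from 80 to 85 Mb it was 0.98.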
